A study of Mus musculus with 16 samples.

Results

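The nuclear-encoded genes of oxidative phosphorylation were examined in the prefrontal cortex (PFC) of mouse lines with altered β-catenin (β-cat). The genes were chosen by name and a floor on their level. They were those whose symbols begin with Ndufa, Ndufb, Ndufc, Ndufs or Ndufv and a number, Uqcr, Atp5 or Cox4 to Cox8, together with Sdha, Sdhb, Sdhc, Sdhd and Cycs, without the assembly factors, Ndufa4l2 and Cox6a2. Of the 23284 genes in the table, 84 had such a name. A mean of at least 0.5 FPKM (fragments per kilobase of transcript, scaled to the mapped fragments of the library, so a level per transcript length) over all libraries was reached by 83 of them. The other, Cox8c, a testis form of a complex IV subunit, was listed at 0 in all 16 libraries. The 83 genes were 36 named for complex I, 4 for complex II, 8 for complex III, cytochrome c itself, 17 for complex IV and 17 for complex V. The label held for 80 of the 83. Cox4nb encodes a part of the endoplasmic reticulum membrane complex. Atp5s and Atp5sl, whose current symbols are Dmac2l and Dmac2, do not encode subunits of the ATP synthase and are counted with complex V by name only.

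Oxidative phosphorylation takes place in the inner mitochondrial membrane. Complexes I and II take electrons from NADH and succinate, complex III passes them to cytochrome c, complex IV hands them to oxygen, and complex V (ATP synthase) uses the resulting proton gradient to make ATP. Most subunits are encoded in the nucleus and a small set in mitochondrial DNA, and neurons rely on the pathway for the energy that synaptic signalling requires.

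The series held 16 PFC libraries, 4 for each of 4 genotypes. APC cKOs (APC fl/fl) carry floxed alleles of the gene for adenomatous polyposis coli, a protein that restrains β-cat. β-cat cOEs (ctnnb1 fl(ex3)/+) carry 1 allele whose exon 3 is floxed, so that a stabilised β-cat is made. Mice with both genes floxed (genotype APC fl/fl/ctnnb1 fl/fl) are named APC/β-cat cKOs. All 3 lines carried the same CamKIIα-Cre-93 driver, which is active mainly in excitatory neurons of the forebrain, while the dissected tissue held other cell types as well. Controls were Cre-negative littermates pooled from all lines, and mice of both sexes were 2 to 3 months old. In bulk tissue, fewer cells of a type and less RNA per cell cannot be told apart. The labels do not say that each library came from a separate mouse, so p-values measure the spread between these libraries.

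Apc, the gene deleted in 2 of the lines, was at 40.8 to 50.1 FPKM in controls and 38.8 to 49.5 FPKM in β-cat cOEs, against 7.85 to 17.1 FPKM in APC cKOs and 6.80 to 12.2 FPKM in APC/β-cat cKOs. Ctnnb1, which encodes β-cat, did not mark its deletion by level: it was at 159.9 ± 4.54 FPKM in controls and 154.5 ± 2.55 FPKM (SD, n = 4) where both genes were floxed, so its loss was not checked by the level of the gene. Markers of excitatory neurons were present in every library, with a summed level of 1677 to 2208 FPKM over 6 genes. Markers of striatal neurons, which lie outside the cortex, summed to between 58.5 and 374.8 FPKM over 6 genes, with wide ranges inside all 4 genotypes. By Xist and Y-linked genes, control 1 and APC cKO 1 were female and the other 14 libraries male. The table holds no fragment counts, so the depth is unknown. Libraries listed 5726 to 6649 genes at 0, the most in APC/β-cat cKO 4 (6649) and the next most in control 4 (6451).

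The oxidative phosphorylation genes were among the most abundant transcripts of the PFC. Their median level was 191 FPKM, against 10.01 FPKM over the 13978 genes tested, and 74 of the 83 were at 50 FPKM or more, as were 1854 of all genes tested. Of the 500 genes with the highest means, 53 were members, and 13 were in the top 100. Together they made up 4.93% to 5.73% of the summed FPKM of a library. The highest share was that of APC/β-cat cKO 4 and the next that of APC/β-cat cKO 2 (5.41%).

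Levels differed by complex and within each complex. The 36 genes of complex I ran from Ndufa11, a subunit of the membrane arm, at 26.4 FPKM to Ndufa4 at 903 FPKM, with a median of 157 FPKM. Ndufa4 was first assigned to complex I and has since been placed in complex IV. The 4 genes of succinate dehydrogenase lay in a narrow range, from 100.3 FPKM for Sdhc, a membrane anchor, to 191 FPKM for Sdha, the flavoprotein. Complex III ran from Uqcrfs1, the Rieske iron-sulfur protein, at 124 FPKM to Uqcrh, the hinge protein, at 581 FPKM, with a median of 355 FPKM. Cycs, the mobile carrier between complexes III and IV, was at 90.1 FPKM.

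Complex IV ran from Cox8b, a heart and muscle form of subunit VIII, at 0.756 FPKM to its counterpart Cox8a at 1165 FPKM (median 309 FPKM). All 6 of its genes under 20 FPKM were tissue-restricted forms or Cox4nb. Genes named for complex V ran from Atp5sl at 13.0 FPKM to Atp5k, the e subunit found where ATP synthase dimers meet, at 1330 FPKM. Atp5k ranked 14th among all genes by mean level, ahead of Cox8a (22nd), Cox6c (27th) and Ndufa4 (32nd).

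**Figure D1:**
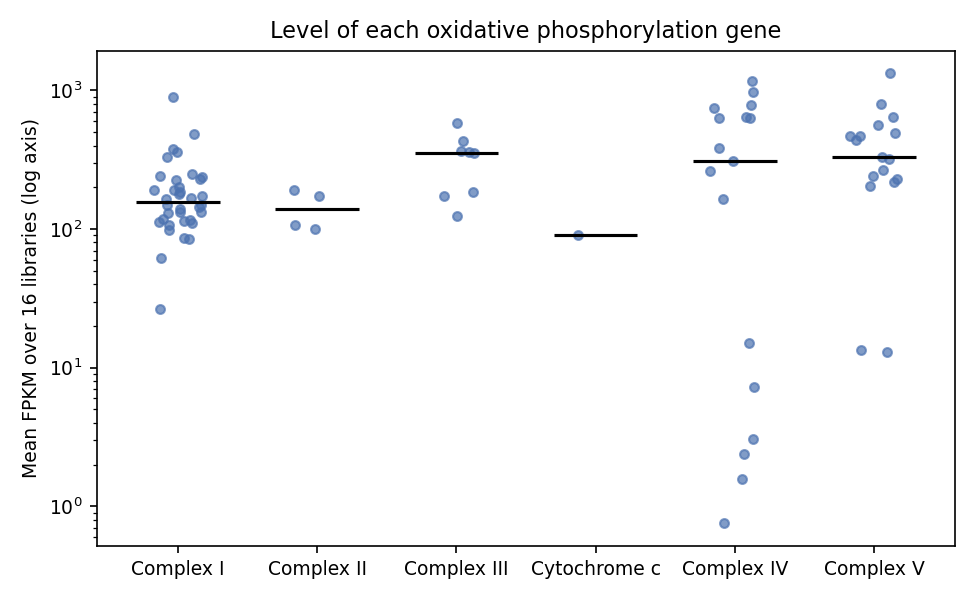
Mean FPKM over 16 libraries (vertical log axis) of each of the 83 genes, by the complex it is named for; points are genes, spread sideways at random, and lines are medians. Most genes lie above 50 FPKM, and the points under 20 FPKM belong to complexes IV and V.

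The genes varied little between libraries of 1 genotype. The within-group SD of log2(FPKM + 0.1), pooled over the 4 genotypes, had a median of 0.089 over the members and 0.146 over all genes tested. Among genes of at least 50 FPKM the medians were 0.087 for the 74 members and 0.098 for all 1854 genes. The steadiest were Atp5a1, the α subunit of the ATP synthase (0.047), Uqcrc2, a core protein of complex III (0.048), and Ndufa9 of complex I (0.050). The least steady were low-level tissue forms of complex IV subunits: Cox6b2 (0.46), Cox7b2 (0.57) and Cox8b (1.33).

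Tissue-specific forms of complex IV were present at a small fraction of the general form. Cox4i2, the lung and hypoxia form of subunit 4, was at 0.166% to 0.437% of Cox4i1 by FPKM within a library, and Cox6b2, the testis form of subunit 6b, at 0.206% to 0.734% of Cox6b1. Cox7a1, the heart and muscle form of subunit 7a, was at 0.884% to 4.24% of Cox7a2. The 3 genes Atp5g1, Atp5g2 and Atp5g3 encode the same mature c subunit of the ATP synthase rotor behind different import sequences. Atp5g3 gave 56.9% ± 0.273 (SD, n = 4) of their summed FPKM in controls, Atp5g1 22.7% ± 0.914 and Atp5g2 20.4% ± 1.14.

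Nuclear respiratory genes are known to share binding sites for NRF1, GABPA (also called NRF2), YY1 and the oestrogen-related receptor α (ESRRA). Windows from RefSeq (GRCm38.p6) of 300 bases, 250 before and 50 from the transcript start, were matched for 70 of the 83 members. NRF1's GCGCATGC, on either strand, was in 11 of the 70 (15.7%), against 5.8% of the 9892 tested genes with a window and 2.71% of all 32851 windows. YY1's AAGATGGCG was in 8 (11.4%), against 3.3% and 1.4%. GABPA's CCGGAAGT was in 5 (7.1%), against 8.2% of tested genes and 3.89% of windows, and ESRRA's TCAAGGTCA in 2 (2.9%), against 0.4% and 0.42%. These counts describe letters in a window and say nothing of a bound factor. Only Uqcr11, a small subunit of complex III, had both an NRF1 and a GABPA match.

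The sites below show how such matches sit in members whose levels are given further on, 30 bases each, with the match in capitals and the strand of the gene. Positions count from the transcript start, where -1 is the base before it.
Ndufa8 (complex I, chr2:36049328-36049357, minus strand, NRF1 match from -8): tcgctggagacGCATGCGCagatggtaccg
Atp5h (complex V, chr11:115419940-115419969, minus strand, GABPA match from -39): ccaaggagagaACTTCCGGcaactctcttc
Ndufs6 (complex I, chr13:73328433-73328462, minus strand, YY1 match from 34): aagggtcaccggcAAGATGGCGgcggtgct
Ndufs7 (complex I, chr10:80249463-80249492, plus strand, YY1 match from 25): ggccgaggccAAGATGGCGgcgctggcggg
In both YY1 examples the match lies after the transcript start and holds the letters ATG.

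Longer stretches are shown for 4 genes that the comparisons turn on: Cycs, Cox6b1, and the pair Cox7a1 and Cox7a2, whose products compete for 1 place in complex IV. Each is the last 100 bases before the gene's annotated exons, except for Cycs. The Cycs stretch ends at the RefSeq transcript start, which lies upstream of its annotated exons. Capitals mark a match to any of the 4 motifs.
Cycs (chr6:50566570-50566669, minus strand): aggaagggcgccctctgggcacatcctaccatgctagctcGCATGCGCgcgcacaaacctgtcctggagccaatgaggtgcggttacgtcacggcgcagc
Cox6b1 (chr7:30626152-30626251, minus strand): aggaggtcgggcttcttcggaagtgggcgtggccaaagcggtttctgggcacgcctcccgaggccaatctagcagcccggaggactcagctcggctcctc
Cox7a2 (chr9:79759879-79759978, minus strand): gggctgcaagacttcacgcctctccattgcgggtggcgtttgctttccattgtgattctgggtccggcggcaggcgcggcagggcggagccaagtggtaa
Cox7a1 (chr7:30184044-30184143, plus strand): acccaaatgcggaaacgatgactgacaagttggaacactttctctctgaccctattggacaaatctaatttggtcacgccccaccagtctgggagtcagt
Cycs is the only one of the 4 with a match in this stretch, an NRF1 match from -60.

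The first comparison asked whether raising β-cat through the loss of APC shifted the pathway. In APC cKOs no member passed the test against controls (limma on log2(FPKM + 0.1) over 13978 genes, Benjamini-Hochberg adjusted p under 0.05), where 0.0429% of all genes did. The smallest adjusted p of a member was 0.310. The median log2 change of the members was -0.0042, the same as over all genes, and 38 of 83 lay above 0. At an unadjusted p under 0.05, 0 members were higher, against 4.82% of all genes, and 3 were lower, against 5.19%. The 3 were Cox7a1, Uqcrb and Cycs.

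Cox7a1 was at 7.03, 5.31, 11.2 and 11.0 FPKM in controls and at 2.97, 5.50, 4.75 and 4.02 FPKM in APC cKOs. The groups overlapped by 1 library, control 2, which lay below APC cKO 2. The log2 change was -0.95 (standard error 0.26, unadjusted p = 0.00215, adjusted p = 0.310), with all 4 values in the β-cat cOEs (5.54 to 7.13 FPKM) between the extremes of the controls. APC/β-cat cKOs were at 5.80 to 13.6 FPKM. Relative to Cox7a2 in the same library, a ratio that multiplying a library by a constant cannot alter, Cox7a1 was 1.06 lower on the log2 scale in APC cKOs (exact two-sided permutation p = 0.0286, the smallest that 4 against 4 allow, and 0.214 after adjustment over 15 isoform ratios). The ratio was 1.69% to 4.24% in controls and 0.884% to 1.64% in APC cKOs, without overlap.

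Beside it, markers of parvalbumin interneurons, a cell type known to contain much mitochondrial machinery, had a median log2 change of -0.33 in APC cKOs. Of the 6 markers, 5 lay below 0 and 4 were at an unadjusted p under 0.05. Of all genes, 4.82% were higher and 5.19% lower at that p. The markers summed to 281 to 362 FPKM in controls and 253 to 384 FPKM in APC cKOs, and no marker was at 0. Markers of oligodendrocytes were lower by a median of 0.258, all 6 of them below 0, with a summed level of 712 to 1089 FPKM in controls and 626 to 751 FPKM in APC cKOs. Other marker lists differed as well. Endothelial markers summed to 95.1 to 106 FPKM in controls and 81.4 to 96.8 FPKM in APC cKOs. For excitatory neurons the sums were 1953 to 2136 and 1677 to 2109 FPKM. Astrocyte markers went the other way, at 612 to 716 FPKM in controls and 646 to 745 FPKM in APC cKOs. The part of any of these cell types in the level of Cox7a1 was not tested.

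Uqcrb, the ubiquinone-binding subunit of complex III, was at 381, 362, 384 and 376 FPKM in controls and 346, 337, 342 and 324 FPKM in APC cKOs. The groups did not overlap, but the log2 change was only -0.16 (standard error 0.066, adjusted p = 0.441). It was at 366 to 415 FPKM in β-cat cOEs, the other line designed to raise β-cat. An exon of Uqcrb overlaps another gene on the opposite strand. Cycs was at 95.2, 91.4, 89.5 and 100.1 FPKM in controls and 89.0, 91.7, 80.4 and 84.4 FPKM in APC cKOs, a log2 change of -0.12 (standard error 0.056, adjusted p = 0.474) with overlapping groups.

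The 3 members with the largest positive statistics in APC cKOs were Ndufs7, a core iron-sulfur subunit of complex I (log2 change 0.15), Cox4nb (0.093) and Cox4i2 (0.44). Their unadjusted p-values were 0.130, 0.0924 and 0.0880, and without control 4 the changes were 0.063, 0.058 and 0.25.

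The second comparison used the β-cat cOEs, where β-cat is raised directly. No member passed the test against controls, where 0.0143% of all genes did, and the smallest adjusted p was 0.946. The median log2 change was -0.028, against -0.0036 over all genes, with 32 of 83 above 0. At an unadjusted p under 0.05, 0 members were higher (2.3% of all genes) and 3 were lower (2.77%): Cox6b1, Ndufa8 and Ndufs6.

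Cox6b1, a subunit on the intermembrane-space face of complex IV, was at 721, 746, 791 and 804 FPKM in controls and 685, 695, 677 and 717 FPKM in β-cat cOEs. No β-cat cOE reached the lowest control, and the log2 change was -0.14 (standard error 0.047, unadjusted p = 0.00830, adjusted p = 0.946). Ndufa8 was at 141 ± 5.56 FPKM in controls and 129 ± 3.24 FPKM in β-cat cOEs (SD, n = 4), a log2 change of -0.13, and Ndufs6 at 183 ± 5.02 and 170 ± 8.21 FPKM (SD, n = 4), a change of -0.11. Both encode accessory subunits of complex I.

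Among the members with the largest positive statistics in β-cat cOEs, the value of Ndufs5, another accessory subunit of complex I, rested on 1 control. Its levels were 253, 223, 227 and 108 FPKM in controls and 225 to 254 FPKM in β-cat cOEs. The log2 change was 0.30, and 0.020 without control 4. The other 2 were Atp5g2 (0.073) and Ndufb11 of complex I (0.070), and without control 4 they stood at 0.013 and 0.014. The ratio of Atp5g1 to Atp5g3 was lower in β-cat cOEs, at 32.2% to 37.6% against 38.3% to 41.8% in controls (log2 difference -0.18, exact two-sided permutation p = 0.0286, adjusted p = 0.214). In APC cKOs the ratio was 38.2% to 43.4% (log2 difference 0.055, exact permutation p = 0.314), and the 2 lines' differences were not tested against each other. Atp5g1 itself was at 184 to 217 FPKM in β-cat cOEs against 217 to 222 FPKM in controls.

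**Figure D2:**
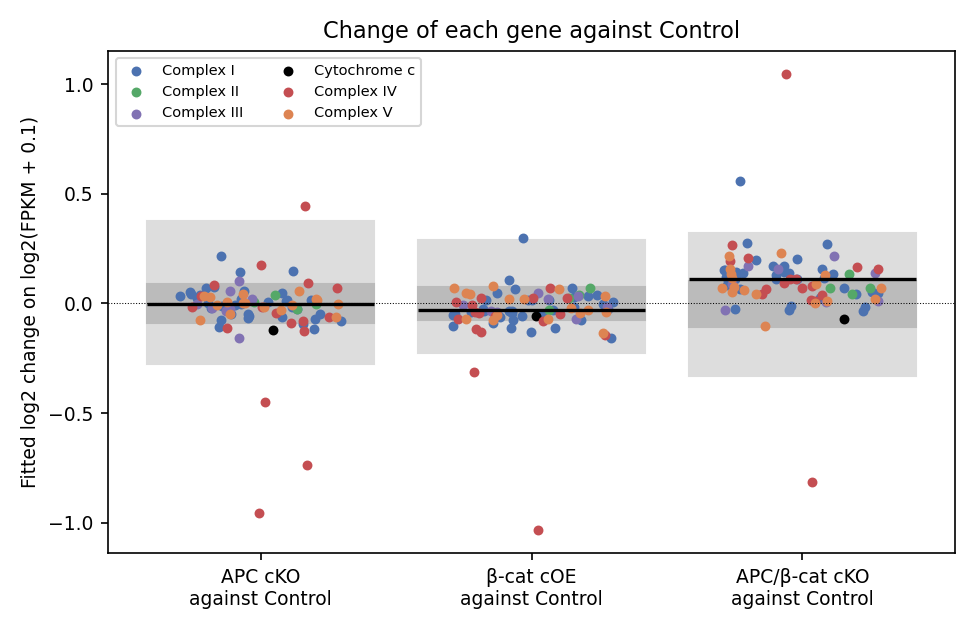
Fitted log2 change of each of the 83 genes against Control (vertical axis, on log2(FPKM + 0.1)) in the 3 lines, coloured by complex; black lines are the members' medians, and grey bands span percentiles 25 to 75 (dark) and 5 to 95 (light) of all genes tested. The members centre near 0 in the APC cKOs (-0.0042) and the β-cat cOEs (-0.028) and lie mostly above it in APC/β-cat cKOs (0.11).

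The third comparison asked what happened when the genes for APC and β-cat were deleted together. In APC/β-cat cKOs most members were above control by a small amount: the median log2 change was 0.11, with 74 of 83 above 0, where over all genes it was 0.0031 with 50.8% above 0. No member passed the test (0.207% of all genes did), and the smallest adjusted p was 0.138. At an unadjusted p under 0.05, 23 members were higher, against 7.17% of all genes, and 1 was lower, against 7.03%. The typical standard error of a member's log2 change was 0.063, so a shift of this size lay within 2 standard errors for a single gene.

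The shift was seen in every complex. The median log2 change was 0.12 for complex I (31 of 36 above 0), 0.070 for complex II (4 of 4), 0.11 for complex III (7 of 8), 0.092 for complex IV (16 of 17) and 0.069 for complex V (16 of 17). Within complex I it was 0.052 for the 7 core subunits, which carry the flavin and iron-sulfur centres, and 0.13 for the 29 accessory ones.

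Atp5h, the d subunit in the peripheral stalk of the ATP synthase, had the largest positive statistic. It was at 454, 443, 466 and 442 FPKM in controls and 492, 524, 515 and 594 FPKM in APC/β-cat cKOs, with no overlap (log2 change 0.23, standard error 0.057, unadjusted p = 8.89e-04, adjusted p = 0.138). Cox7a2l, which ties complex III to complex IV in supercomplexes, was at 163, 161, 157 and 158 FPKM in controls and 179, 189, 168 and 196 FPKM in APC/β-cat cKOs, again without overlap (log2 change 0.20, standard error 0.050, adjusted p = 0.162). Ndufb9, in the membrane arm of complex I, was at 348 ± 27.1 FPKM in controls and, with both genes floxed, 391 ± 18.8 FPKM (SD, n = 4), a log2 change of 0.17 (adjusted p = 0.251), with overlapping groups.

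A few members went the other way. Cox7b2, a testis form of subunit 7b, was at 1.25 to 2.60 FPKM in controls and 0.447 to 1.61 FPKM in APC/β-cat cKOs (log2 change -0.82, unadjusted p = 0.0415, adjusted p = 0.335). Atp5s had a log2 change of -0.10. Cycs had one of -0.071 (standard error 0.056), at 87.6, 86.7, 87.1 and 96.7 FPKM in APC/β-cat cKOs, and 3 of these 4 values lay below every control.

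The shift was not even among the 4 APC/β-cat cKO libraries. The median deviation of the members from their own means over all libraries was 0.0018, 0.096, 0.0042 and 0.23 in APC/β-cat cKO 1 to 4, and from -0.085 to 0.017 in the 12 other libraries. APC/β-cat cKO 1 and 3 thus lay within the range of the other genotypes, and APC/β-cat cKO 4 was the highest of all 16 libraries for 66 of the 83 genes. Control 4 was the lowest library for 25. Without APC/β-cat cKO 4 the median log2 change against control was 0.045, with 59 of 83 above 0. Then 11 members were higher at an unadjusted p under 0.05, against 4.29% of all genes under the same setting, and 1 was lower, against 3.31%. Leaving out APC/β-cat cKO 1 instead gave a median of 0.13, with 77 of 83 above 0, and leaving out APC/β-cat cKO 3 gave 0.13, with 75. APC/β-cat cKO 2 and 4 are the 2 libraries of the line where the members were highest, so leaving both out had to lower the median. Without both, the median log2 change was 0.022, with 47 of 83 above 0. There 2 members were higher, against 2.47% of all genes, and 3 were lower, against 1.94%.

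**Figure D3:**
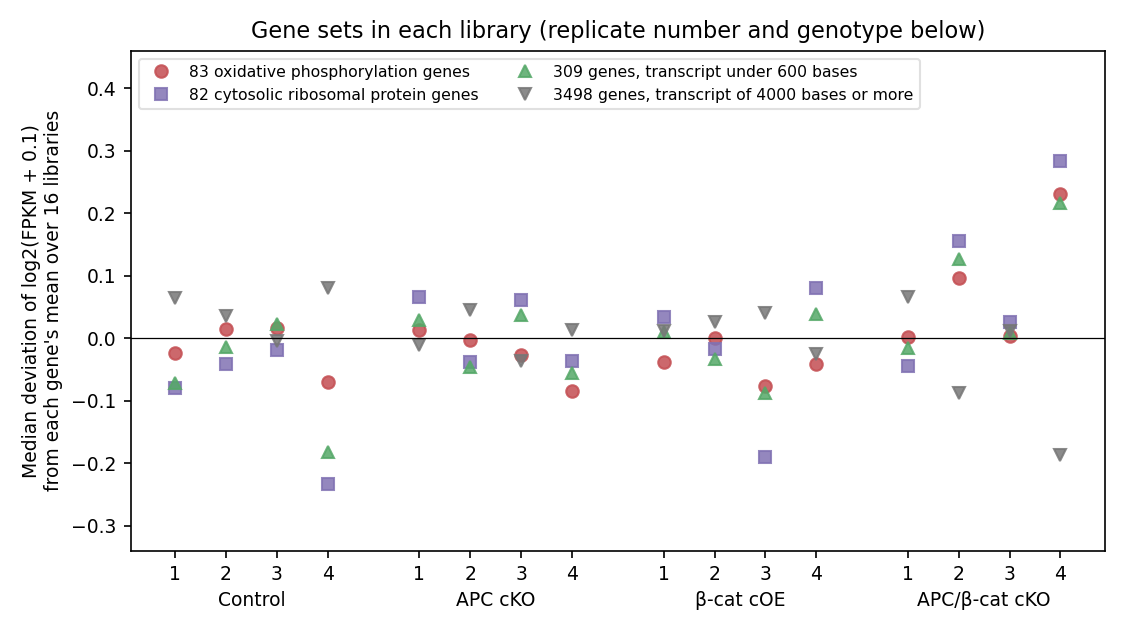
Median deviation of log2(FPKM + 0.1) from each gene's mean over 16 libraries (vertical axis) for 4 gene sets, in each library (horizontal axis, replicate number within genotype). The oxidative phosphorylation genes (circles) are highest in APC/β-cat cKO 4 (0.23), where cytosolic ribosomal protein genes and short transcripts are also high and transcripts of 4000 bases or more are low (-0.19).

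Other gene groups moved with the members in some libraries and not in others. In APC/β-cat cKO 4 the median deviation of the 82 cytosolic ribosomal protein genes was 0.28 and that of the 76 mitochondrial ribosomal protein genes 0.21. It was 0.22 over the 309 tested genes with transcripts under 600 bases and -0.19 over the 3498 of 4000 bases or more. In control 4 these 2 classes stood at -0.18 and 0.081, the opposite way round, and the members at -0.070. In β-cat cOE 4 the cytosolic ribosomal protein genes stood at 0.080 and genes under 600 bases at 0.040, while the members were at -0.041. The same sets stood at 0.0615, 0.037 and -0.027 in APC cKO 3. The members are short genes, with a median transcript length of 742 bases.

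Members were set beside all genes of like length, without a test. Each class held its own members too (29 of the 309 genes under 600 bases), also for the centring below. The 2 sides were thus not independent. In APC/β-cat cKOs against control the members' medians were close to those of their class up to 2500 bases. Members under 600 bases had a median log2 change of 0.11 (29 genes) where all genes of that class had 0.13. From 600 to 1000 bases the medians were 0.13 (25 genes) and 0.11, from 1000 to 1500 bases 0.090 (11 genes) and 0.089, and from 1500 to 2500 bases 0.034 (12 genes) and 0.038. The 6 members of 2500 to 4000 bases had 0.032 and their class -0.0063. With every library centred within length classes, the members' median change was 0.0058, with 46 of 83 above 0. By unadjusted p, 5 were higher, against 5.57% of all genes under this setting, and 3 were lower, against 6.03%. What set the length pattern of these libraries was not tested.

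In the other lines the members' medians lay below those of genes of like length in each class up to 2500 bases. Both lines were set against the same 4 controls, so their results are not independent of each other. In control 1 to 4 the median deviations of members under 600 bases were -0.0079, 0.011, 0.048 and -0.084. Those of their class were -0.071, -0.014, 0.0225 and -0.18. Members under 600 bases had a median log2 change against control of -0.015 in APC cKOs, where their class had 0.058, and of -0.043 in β-cat cOEs, where it had 0.037. From 600 to 1000 bases the medians were 0.0045 and 0.032 in APC cKOs, and 0.0066 and 0.017 in β-cat cOEs. With centring within length classes the members' median in APC cKOs was -0.033, with 24 of 83 above 0. By unadjusted p, 0 were then higher, against 5.42% of all genes, and 10 were lower, against 5.23%. In β-cat cOEs the median was -0.039, with 27 of 83 above 0. There 0 were higher, against 2.81%, and 12 were lower, against 2.96%. No member passed the adjusted test against control in any of the 3 lines under this setting, and the smallest adjusted p of a member was 0.197 (limma, APC/β-cat cKOs).

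**Figure D4:**
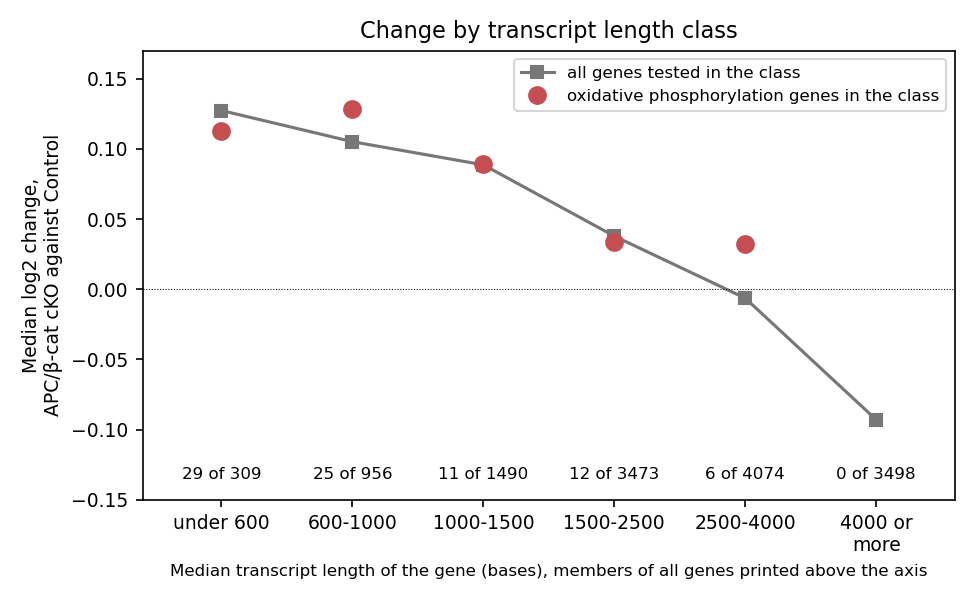
Median log2 change in APC/β-cat cKOs against Control (vertical axis) by class of median transcript length (horizontal axis, bases), for all genes tested (squares) and for members (circles), with the numbers of members and of all genes above the axis. The medians of all genes run from 0.13 under 600 bases to -0.093 at 4000 bases or more, and the members' medians follow them, with the widest gap at 2500 to 4000 bases, where there are 6 members.

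The last comparisons set the lines designed to raise β-cat against the line in which its gene was floxed together with Apc. Both use the same 4 APC/β-cat cKO libraries, so their results are not independent of each other. In APC cKOs against APC/β-cat cKOs, 0 members passed (0.215% of all genes). At an unadjusted p under 0.05, 0 were higher, against 4.15% of all genes, and 19 were lower, against 6.13%, with a median log2 difference of -0.11 and 7 of 83 above 0. For β-cat cOEs set against those same 4 libraries, 1 member passed (0.229% of all genes). At an unadjusted p under 0.05, 0 were higher, against 5.04%, and 32 were lower, against 6.88%, with a median of -0.12 and 8 of 83 above 0. These counts depended on the libraries and the setting. Without APC/β-cat cKO 1, 34 members were lower in APC cKOs (6.41% of all genes) and 38 in β-cat cOEs (7.84%). Without APC/β-cat cKO 3 they were 30 (6.9%) and 33 (7.81%). Without APC/β-cat cKO 4, 10 members were lower in APC cKOs (4.19% of all genes) and 16 in β-cat cOEs (4.86%). Without APC/β-cat cKO 2 and 4 they were 5 (4.53%) and 8 (3.53%), with centring within length classes 6 (5.14%) and 13 (5.19%), and with quantile scaling 7 (5.52%) and 14 (6.21%). APC cKOs against β-cat cOEs gave a median of 0.0098 and 44 of 83 above 0. There 0 members passed (0.0429% of all genes), while 1 was higher (3.63%) and 2 were lower (3.93%) at an unadjusted p under 0.05.

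Cox6b1 was the 1 member called. It fell short of every APC/β-cat cKO in all 4 β-cat cOEs: 685, 695, 677 and 717 FPKM against 796, 820, 809 and 880 FPKM. The log2 difference was -0.25 (standard error 0.047, limma adjusted p = 0.0362). The call was kept without control 1, control 4 or APC cKO 1 and lost without any other single library. It was lost without APC/β-cat cKO 4 (log2 difference -0.22, adjusted p = 0.106) and with centring within length classes (-0.15, adjusted p = 0.33), and over all alternatives the adjusted p ran from 0.0245 to 0.372. Cox7a2l was next, at 149, 155, 148 and 164 FPKM against 179, 189, 168 and 196 FPKM (log2 difference -0.25, standard error 0.050, adjusted p = 0.0568).

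In APC cKOs against APC/β-cat cKOs the leading members were Cox6b1 (log2 difference -0.20, adjusted p = 0.117), Atp5h (-0.24, adjusted p = 0.117) and Cox7a1 (-1.07, adjusted p = 0.129). A test for any difference among the 4 genotypes called 0 members and 0.25% of all genes. Its smallest adjusted p for a member was that of Cox6b1, 0.0891.

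**Figure D5:**
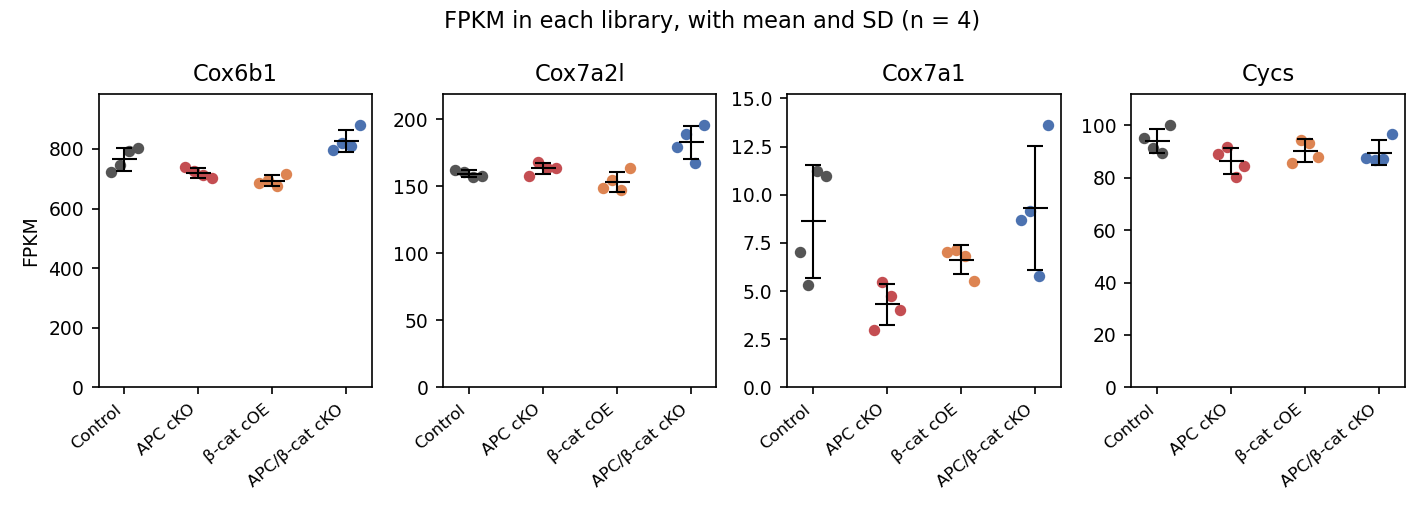
FPKM (vertical axes, each from 0) of Cox6b1, Cox7a2l, Cox7a1 and Cycs in each library by genotype; points are libraries in replicate order, and bars give the mean and SD (n = 4). Cox6b1 and Cox7a2l have their highest means in APC/β-cat cKOs, Cox7a1 has its lowest mean in APC cKOs (2.97 to 5.50 FPKM), and the groups overlap for Cycs.

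Oligodendrocyte markers also differed between the lines compared here. Relative to APC/β-cat cKOs, their median log2 difference was -0.53 in the APC cKOs and -0.28 in the β-cat cOEs. Their summed level in APC/β-cat cKOs was 914 to 1032 FPKM over 6 genes, inside the 712 to 1089 FPKM of controls. Their median log2 change against control was 0.23, with 6 of 6 above 0 and none at 0 FPKM. In APC/β-cat cKO 1 to 4 their median deviation was 0.23, 0.26, 0.13 and 0.39. The members stood at 0.0018, 0.096, 0.0042 and 0.23 there. Microglial markers were above control in the same line by a median of 0.12 (6 of 6), with a summed level of 153 to 163 FPKM against 147 to 148 FPKM. Their part in the members' shift was not tested.

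The rest of the pathway was read from lists of related genes. The 7 subunits or regulators left out by the naming rule, among them Cyc1 (cytochrome c1 of complex III), Ndufab1, Ndufa4l2, Usmg5, Atpif1 (the inhibitor of ATP synthase) and 2010107E04Rik, had a median log2 change of 0.074 in APC/β-cat cKOs, with 6 of 7 above 0. The exception was Cox6a2, a muscle form of subunit 6a, at -0.54 (standard error 0.40), with -0.78 and -0.53 in the APC cKOs and the β-cat cOEs. None of the 7 passed in any comparison, and the smallest adjusted p was 0.332, for Atpif1 between the β-cat cOEs and the APC/β-cat cKOs.

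Of 43 assembly factors listed, which build the complexes without staying in them, 27 were matched in the table and tested. Their median log2 change in APC/β-cat cKOs was 0.046, with 15 of 27 above 0 and 2 at an unadjusted p under 0.05. At that p, 7.17% of all genes were higher and 7.03% lower in this comparison. The 76 mitochondrial ribosomal proteins, which translate the subunits encoded in mitochondrial DNA, had a median of 0.077 with 57 above 0. 1 of them, Mrpl41, passed the test (log2 change 0.35, limma adjusted p = 0.0241), where 0.207% of all genes did. The 82 cytosolic ribosomal proteins had 0.21, with 79 above 0 and 50 higher at an unadjusted p under 0.05, against 7.17% of all genes. None of the 13 subunits encoded in mitochondrial DNA was matched, and they were not analysed here.

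Upstream metabolism showed smaller values in APC/β-cat cKOs. The median log2 change was 0.018 over 16 genes of the tricarboxylic acid cycle and pyruvate dehydrogenase (11 above 0) and 0.028 over 15 glycolytic genes (12 above 0). The 14 regulators of mitochondrial biogenesis, such as Nrf1, Gabpa and Tfam, had -0.043 with 1 of 14 above 0. Over all genes the median was 0.0031. In this line the change went with transcript length, and these lists were not set beside genes of like length. No gene of these lists passed the test against control in any line. In APC cKOs the medians were -0.034 for the cycle, -0.016 for glycolysis and 0.0080 for the regulators, and in β-cat cOEs they were -0.021, -0.040 and -0.029.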

How the data were processed

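The authors mapped paired-end reads with TopHat2 2.0.10 to mm10 and made FPKM values with Cufflinks2. The deposited numbers were taken to be log2(FPKM + 1): FPKM times transcript length in kilobases then sums to 1021928 to 1087032 per library, and natural logs would give at least 8515899. They were turned back into FPKM. The test was limma 3.58.1 (R 4.3.3; lmFit, contrasts.fit, eBayes with trend) on log2(FPKM + 0.1), over the 13978 genes whose mean reached 0.5 FPKM. All 4 genotypes shared 1 spread (12 residual degrees of freedom). This scale understates changes of low genes. The exact permutation tests compared 4 with 4 libraries. Median transcript lengths came from GENCODE M21. The method was tested on simulated data. Tables and plots used Python 3.11.15 with numpy 2.4.6, matplotlib 3.10.9 and pandas 2.3.3.

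Members, lists and tests were chosen with earlier results of these data known. Genes named were members called, the 3 most positive and 3 most negative statistics against control in each line, the highest and lowest of each complex, isoform pairs, the 3 most and 3 least variable, list genes called against control, and subunits outside the naming rule. Others were chosen after their values were seen, namely Cox6c, Ndufa4's rank, Uqcr11 and the marker lists' values beside a result. Exons of 5 members overlap another gene on the same strand and of 19 on the opposite strand, Ndufb9 among the first and Uqcrb and Ndufs6 among the second, and the strand setting of the counting is not given in the sources used here. Several members have processed pseudogenes that could share their reads.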

Additional observations from a re-analysis of the deposited data

Results flagged for a closer look

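The log2 difference of Cox6b1 between β-cat cOEs and APC/β-cat cKOs was -0.25 (limma adjusted p = 0.0362), the single test of a difference between altered lines that a member passed.

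A single library stood far from the rest of its genotype in 7 of the 144 combinations of genotype and named member (or the members' median), with a gap to its nearest neighbour that took up most of the genotype's range. Chance gives about 1 in 20, or 7.2 of 144. The gap was 0.978 of the range for Sdhc in APC cKOs (94.4 to 107 FPKM) and 0.914 for Cycs in APC/β-cat cKOs (86.7 to 96.7 FPKM). It was 0.910 for Cox4nb in APC cKOs (15.2 to 16.3 FPKM), 0.887 for Atp5sl in β-cat cOEs (12.05 to 13.33 FPKM) and 0.883 for Atp5k in APC cKOs (1219 to 1335 FPKM). It was 0.878 for Uqcrh in APC/β-cat cKOs (595 to 690 FPKM) and 0.873 for Ndufs7 in APC cKOs (111 to 119 FPKM). For Cycs and Uqcrh the library apart was APC/β-cat cKO 4.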

How the results depend on the processing

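Fragment depth is unknown, and with 4 libraries a genotype the smallest permutation p is 0.0286. Alternatives were log2(FPKM + 1), no filter, a floor of 2 FPKM on the mean, and scaling by quantiles or by median of ratios. Others were a fit without the trend, sex as covariate, a block by title number, only the groups compared, and each library left out. 3 were added after seeing the data: a block by sets of neighbouring column numbers, centring within length class, and APC/β-cat cKO 2 and 4 left out. No value that had passed its test turned its direction.

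Between the β-cat cOEs and the APC/β-cat cKOs, the count of members called was 2 (Cox6b1 and Cox7a2l) on log2(FPKM + 1). It was 0 with no filter, quantile scaling, median-of-ratios scaling, no trend, only the groups compared, centring within length class, and APC/β-cat cKO 2 and 4 left out. It was also 0 with the title numbers as a block, and with sets of neighbouring column numbers, whose meaning is not given, as a block. Neither was taken to pair the libraries. A correlation of deviations over 0.1 was found in 4 of 21 pairs sharing a title number and 5 of 24 sharing a column set. Of the 16 libraries, 5 correlated best with one of their own title number and 6 with one of their own column set. Either block left the count at 0 in every other comparison. With 1 library left out the count was 0 to 1: 1 without control 1, control 4 or APC cKO 1 (Cox6b1) or APC/β-cat cKO 3 (Cox7a2l), and 0 without any of the others. The test among the 4 genotypes called 0 to 1, with Cox6b1 called without control 1. The cause was not tested.

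The median log2 change of the members in APC/β-cat cKOs against control was 0.040 with quantile scaling, 0.0058 with centring within length class and 0.022 without APC/β-cat cKO 2 and 4, and 0.045 to 0.13 with 1 library left out. For the APC cKOs set against that line it was -0.042, -0.037 and -0.025 under the same 3 settings, and -0.14 to -0.062 with 1 library left out. For the β-cat cOEs set against it, the median was -0.062 with quantile scaling, -0.038 with centring within length class and -0.046 without APC/β-cat cKO 2 and 4, and -0.15 to -0.083 with 1 library left out. The sign held in each of these. Of the named members' log2 changes and the isoform ratios, the one that crossed the threshold was that of Cox6b1 between the β-cat cOEs and that line, whose call was lost in 22 alternatives. Cox7a2l in that comparison and Cox6b1 in the test among the 4 genotypes crossed it as given above. The isoform ratios could hardly cross it, so their staying below it says little. Even a ratio at the smallest exact permutation p, 0.0286, had an adjusted p of 0.214 over the 15 ratios.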
